A study of Homo sapiens with 12 samples.

Results

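The 46 genes described here encode the machinery that brings new secretory and membrane proteins into the endoplasmic reticulum (ER) and the coat and receptors that carry them out towards the Golgi. They were chosen by name for their role, though with earlier results of these data known, and all 46 have a row among the 28278 gene symbols counted. Of them, 24 form the entry arm, from the signal recognition particle to signal peptidase, and 22 form the export arm, from the COPII coat to the KDEL receptors.

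RNA was sequenced from motor neuron cultures made from the human line WA09-Islet1-GFP (embryonic stem cells, labelled wild-type), in which GFP marks cells that express the motor neuron transcription factor Islet1. Cultures were exposed for 16 hours to cis-chlordane, an organochlorine insecticide, at a labelled dose of 10 µM, or to the solvent DMSO, and were then sorted on GFP. The 4 groups of 3 libraries were control GFP-positive, treated GFP-positive, control GFP-negative and treated GFP-negative cells, where control means DMSO for the same 16 hours. All come from 1 reporter line, and per the study's methods a biological replicate was an independent thaw of frozen motor neurons.

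Counts assigned to genes ranged from 23414935 to 38347050 per library. The 8 motor neuron markers summed to between 1717 and 2318 CPM (counts scaled to TMM-adjusted library size) in control GFP-positive libraries and to between 273 and 301 in control GFP-negative ones. ISL1, the gene of Islet1 itself, read 62.4 to 68.6 CPM in control GFP-positive and 2.41 to 2.79 CPM in control GFP-negative libraries. After treatment ISL1 read 8.01 to 15.3 and 0.388 to 0.691 CPM. Most of the sum came from SLC18A3, PRPH and SLC5A7, while LHX3 was lower in control GFP-positive (1.49 to 2.34 CPM) than in control GFP-negative libraries (3.31 to 5.48 CPM), and after treatment ISL2 and MNX1 overlapped between the fractions. After treatment the same sum was 543 to 864 CPM in GFP-positive cells and 105 to 125 CPM in GFP-negative cells. In bulk libraries, fewer cells of a type and less RNA per cell cannot be told apart. The 5 mesenchymal markers summed to 245 to 308 CPM in control and 48.6 to 78.4 CPM in treated GFP-positive cells, and to 735 to 854 and 461 to 743 CPM in GFP-negative cells. Within that list COL1A1 and COL1A2 went opposite ways in GFP-negative cells, from 540.4 to 637 down to 189 to 409 CPM and from 175 to 213 up to 271 to 330.4 CPM. The 4 cycling cell markers summed to 426 to 554 CPM in control and 138 to 182 CPM in treated GFP-negative cells, and to 55.4 to 84.9 and 29.9 to 33.9 CPM in GFP-positive ones. The sums of the 5 pan-neuronal and 6 progenitor markers, made up mostly of TUBB3 and NES, were also lower in treated libraries of both fractions, without overlap. Other markers of these lists rose without overlap. SNAP25 went from 87.2 to 107 up to 165 to 212 CPM in GFP-positive and from 35.5 to 43.8 up to 57.8 to 71.8 CPM in GFP-negative cells, and SYT1 also rose in both fractions. In GFP-positive cells PAX6 went from 6.11 to 9.79 up to 26.2 to 33.5 CPM, and OLIG2 rose too. Of the pluripotency markers, POU5F1 and NANOG had at most 3 counts in every group, and LIN28A read 148 to 163 and 44.3 to 53.8 CPM in control and treated GFP-positive cells and 163 to 201 and 68.1 to 99.2 CPM in GFP-negative ones. The part of these marker differences in the results on the 46 genes was not tested.

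Proteins with a signal sequence are recognised on the ribosome by the signal recognition particle (SRP), docked at the SRP receptor and threaded through the SEC61 channel with help from the TRAP complex, after which signal peptidase removes the signal. Folded cargo leaves at ER exit sites in vesicles coated with COPII, in which the GTPase SAR1 recruits the SEC23 and SEC24 inner coat, SEC24 binds cargo, and SEC13 and SEC31 form the outer cage. Receptors such as LMAN1 load cargo that SEC24 cannot reach, and KDEL receptors return escaped ER residents.

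Cis-chlordane raised most of these genes in GFP-positive cells. A differentially expressed gene (DEG) had to change at least 2-fold at an edgeR adjusted p under 0.05. Of the 45 members tested, 25 were DEGs that rose and 0 were DEGs that fell, where 12.8% and 11.2% of all 15333 genes tested were DEGs in these directions. At an adjusted p under 0.05 and any size, 35 members rose and 0 fell, against 26.5% and 24.4% of all genes. At an unadjusted p under 0.05, 36 members were higher and 0 lower, and DESeq2 called 35 higher and 0 lower. The lowest treated library exceeded the highest control library for 35 members, against 26.9% of all genes, and lay the other way for SEC61A2 alone, against 30.6%. The median log2 fold change was 1.18 over the members and 0.03 over all genes. SEC16B, a minor form of the exit site scaffold SEC16, had 0 counts in all 12 libraries and was not tested. Counting error would allow it up to 3 counts per library, but 4412 of its exonic bases are shared on the same strand with CRYZL2P-SEC16B, also at 0 counts, and reads there may have been left uncounted as ambiguous.

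Both arms took part. In the entry arm 12 of 24 genes were DEGs, 18 rose and the median log2 fold change was 1.05. In the export arm 13 of 21 tested were DEGs, 17 rose and the median was 1.40. The 10 members that did not pass in GFP-positive cells were SRP9, SRP14, SRP68, SEC61A2, SSR4, SPCS1, SEC24B, SEC24C, SEC31B and PREB. By library size alone SRP68, SPCS1, SEC24B and SEC24C passed as higher (edgeR adjusted p = 0.0221, 0.0318, 0.0415 and 0.0244), SRP68 also did with at least 10 counts in every library (edgeR adjusted p = 0.0446), with the trend in GC content removed (edgeR adjusted p = 0.0454) and without treated replicate 2 (edgeR adjusted p = 0.0126), and SEC24B did without control replicate 3 (edgeR adjusted p = 0.0336). Within every subcomplex with more than 2 tested genes other than the KDEL receptors, at least 1 member did not pass. The values of SRP9, SRP14, SRP68, SRP72, SEC61G, SSR1, SSR4, SPCS2, SAR1A, SEC24A, SEC13, TFG and MCFD2 are less certain, because the annotation holds pseudogene copies named after them with which reads could be split, and of these copies SSR4P1 alone has a row, with 192 counts over the 12 libraries.

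**Figure D1:**
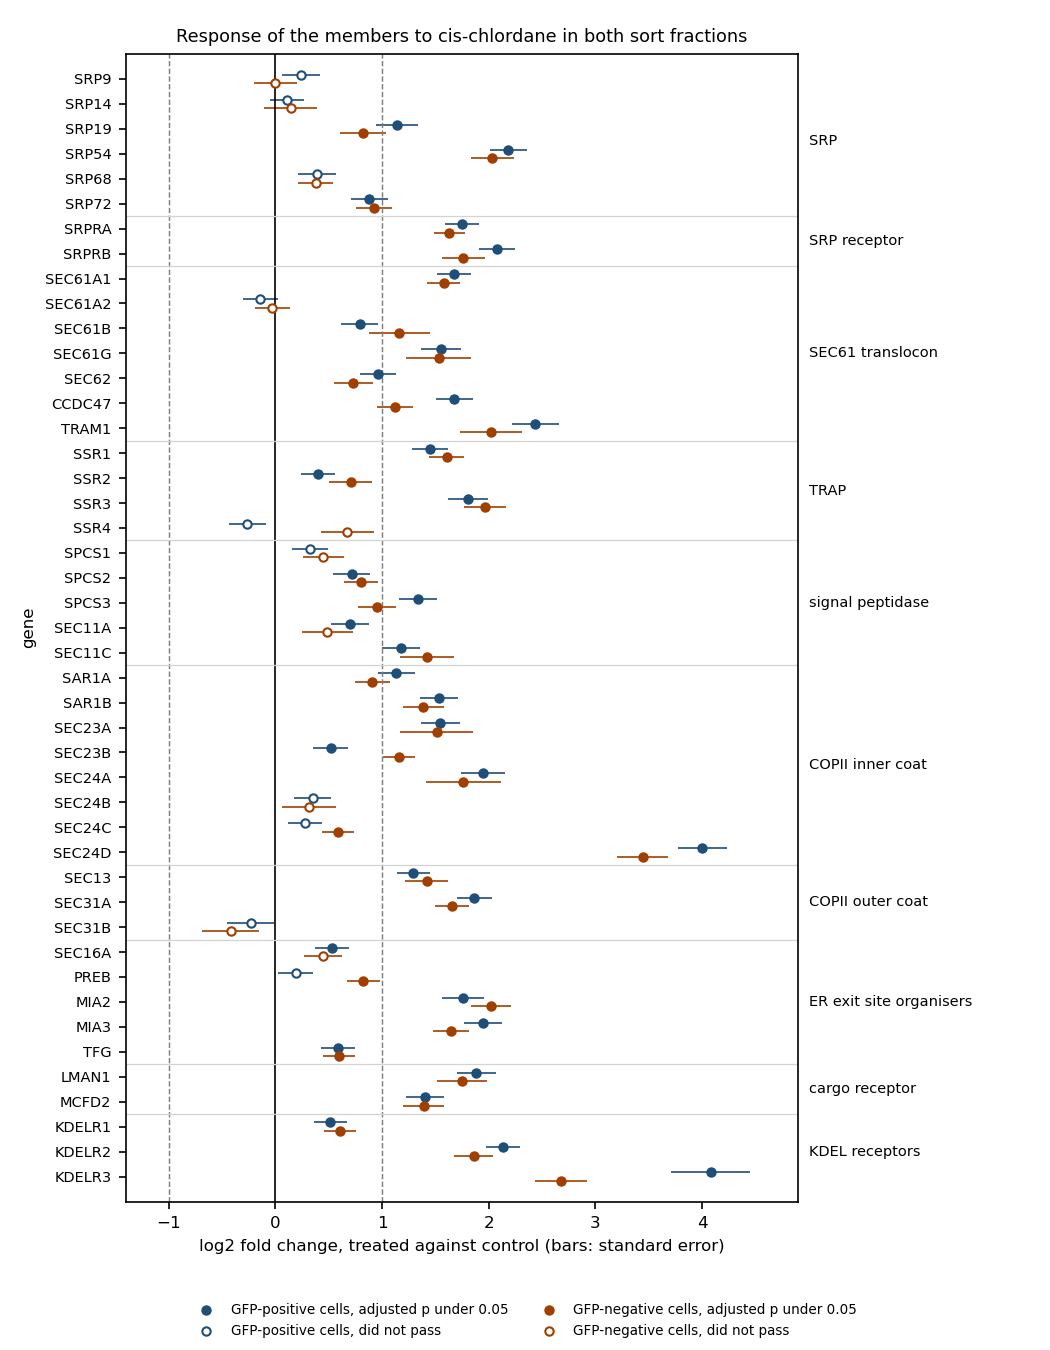
Log2 fold change of treated against control libraries for each of the 45 tested members (rows, by role), with the standard error as bars, in GFP-positive (blue) and GFP-negative (brown) cells; filled points have an edgeR adjusted p under 0.05 and dashed lines mark a fold change of 2 either way. SEC24D and KDELR3 lie farthest to the right in both fractions, and 0 filled points lie left of zero.

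Many genes of the ER stress response carry the sequence TGACGTGG, the core of the unfolded protein response element (UPRE), near their start, so the promoter windows of the members were searched for it on both strands. RefSeq windows on GRCh38.p14, from 250 bases before to 50 after the start, were matched for 40 of the 46 members. KDELR2, MIA2, SEC24D, SPCS1, SRPRA and TRAM1 were not among them. A gene was counted when any of its windows held the letters. They were found in 9 of the 40 members (22.5%), in 1.21% of the 11653 genes with a window that were tested in GFP-positive cells and in 0.927% of all 27305 genes with a window. The 9 matches are printed 5′ to 3′ on the strand of the gene, with the match in capitals and 10 bases on each side. Matches on the opposite strand read CCACGTCA, whose first letters CCACG are also the end of the ER stress element (ERSE).
KDELR3, chr22:38468040-38468067, plus strand: gccgccctggCCACGTCAccgcccggcc
SEC24A, chr5:134648596-134648623, plus strand: tgagagtcggTGACGTGGcggcgaggcc
SEC23A, chr14:39103222-39103249, minus strand: cccctcctctTGACGTGGcagaggcggc
SEC16A, chr9:136484708-136484735, minus strand: ggccctggtgCCACGTCAgccggactga
SEC16B, chr1:177984298-177984325, minus strand: tctgggcagcTGACGTGGcaacacagtt
SRP19, chr5:112861165-112861192, plus strand: agtcttcatgCCACGTCAgagactagag
SEC62, chr3:169966780-169966807, plus strand: cctcctcgctCCACGTCAgagggaaccg
SSR3, chr3:156554149-156554176, minus strand: ctgataacagCCACGTCAgcaaggaaac
SSR4, chrX:153794529-153794556, plus strand: cagggaggggCCACGTCAgtgctgccag

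The genes with these letters did not respond alike. Their log2 fold changes in GFP-positive cells were 4.08 for KDELR3, 1.95 for SEC24A, 1.80 for SSR3, 1.55 for SEC23A, 1.14 for SRP19, 0.96 for SEC62, 0.53 for SEC16A and -0.26 for SSR4, the last of which did not pass, and SEC16B was not detected. In KDELR3 the match lies 46 to 39 bases before the start, in SSR3 41 to 34 bases and in SEC24A 179 to 172 bases before it. In SEC16B, SRP19, SEC62 and SSR4 it also lies before the start. The SEC23A match spans the start (-4 to 4), and the SEC16A match lies after it (16 to 23). The full ERSE (CCAAT and CCACG with 9 bases between) and ERSE-II (ATTGG and CCACG with 1 base between) were in 0 of the 40 members and in 0.146% and 0.129% of the tested genes with a window. The C/EBP-ATF site (TTGCATCA) was in 0 of 40, against 0.764%, and the cyclic AMP response element (CRE, TGACGTCA) was in CCDC47 alone, against 3.71%.
CCDC47, chr17:63773783-63773810, minus strand: cggttccgtgTGACGTCAacttgacgga

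Among the 6 SRP proteins, SRP54, the GTPase that binds the signal sequence, rose most. It read 34.7, 29.5 and 37.7 CPM in the 3 control GFP-positive libraries and 134, 139.7 and 169 CPM in the treated ones (log2 fold change 2.19 ± 0.17 SE, edgeR adjusted p = 9.38e-13). In GFP-negative cells it read 32.2, 28.2 and 33.6 CPM and 139, 97.1 and 155 CPM (log2 fold change 2.04 ± 0.20 SE, edgeR adjusted p = 1.18e-04). The treated libraries all stood above the controls in both fractions. SRP19, which helps SRP54 assemble onto the SRP RNA, and SRP72, part of the SRP68/72 pair, rose less in GFP-positive cells, by 2.20-fold (edgeR adjusted p = 1.26e-05) and 1.84-fold (edgeR adjusted p = 5.07e-05). SRP9 and SRP14, which form the Alu domain that slows elongation, did not pass, with log2 fold changes of 0.24 ± 0.18 and 0.112 ± 0.16 (SE). With the trend in GC content removed, these became -0.23 and -0.18. SRP14 read 207, 185 and 179.5 CPM in control and 165, 207 and 217 CPM in treated GFP-positive libraries, which overlap. Per kilobase of exon, a scale on which genes can be compared, SRP14 stood at 92.9 ± 7.03 CPM per kb in control GFP-positive libraries (SD, n = 3) and SRP54 at 4.01 ± 0.493, and after treatment at 95.9 ± 13.6 and 17.4 ± 2.22.

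Both subunits of the SRP receptor were DEGs in both fractions. SRPRA, the subunit that docks SRP, read 87.2, 100.3 and 92.8 CPM in control and 319.7, 294 and 284 CPM in treated GFP-positive libraries (log2 fold change 1.75 ± 0.16 SE, edgeR adjusted p = 2.57e-11). SRPRB, its membrane anchor, read 51.8, 56.7 and 49.5 and 191, 193 and 253 CPM (log2 fold change 2.08 ± 0.17 SE, edgeR adjusted p = 1.84e-12). The groups did not overlap for either gene. In GFP-negative cells the fold changes were 3.10 for SRPRA and 3.40 for SRPRB.

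At the translocon, SEC61A1, the main channel subunit, rose in both fractions. It read 305, 347 and 308 CPM in control and 987, 869 and 1071 CPM in treated GFP-positive libraries (log2 fold change 1.68 ± 0.16 SE, edgeR adjusted p = 9.14e-11), and 517, 484 and 421 and 1385, 1278 and 1644 CPM in GFP-negative ones (log2 fold change 1.58 ± 0.16 SE, edgeR adjusted p = 1.26e-04). SEC61G, a small tail-anchored channel subunit, rose 2.93-fold in GFP-positive cells and SEC61B, the other one, 1.73-fold, with edgeR adjusted p = 2.02e-08 and 3.21e-04. TRAM1, a membrane protein beside the channel that helps some nascent chains enter, showed the largest change of the entry arm in GFP-positive cells (in GFP-negative cells SRP54 and TRAM1 rose by 4.10-fold and 4.06-fold). It read 8.35, 8.63 and 10.6 CPM in control and 39.2, 34.8 and 68.0 CPM in treated GFP-positive libraries, a 5.41-fold rise (edgeR adjusted p = 2.56e-11), and 14.9, 18.4 and 31.1 and 78.2, 72.9 and 114 CPM in GFP-negative ones (edgeR adjusted p = 8.21e-04). No treated TRAM1 library overlapped a control library of its fraction. CCDC47, a chaperone of multipass membrane proteins at the translocon, rose 3.20-fold and 2.18-fold in GFP-positive and GFP-negative cells, and SEC62, which serves short and post-translational clients, 1.95-fold and 1.66-fold. With the GC trend removed SEC62 no longer passed in GFP-negative cells (edgeR adjusted p = 0.0645). SEC61A2, the second channel isoform, read 52.8, 57.3 and 53.3 CPM in control and 45.2, 49.1 and 47.2 CPM in treated GFP-positive libraries and did not pass (edgeR adjusted p = 0.501).

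The 4 TRAP subunits, which sit beside SEC61 and aid the entry of some signal sequences, diverged. SSR3 read 51.1, 42.0 and 51.3 CPM in control and 142, 119.9 and 218 CPM in treated GFP-positive libraries (log2 fold change 1.80 ± 0.19 SE, edgeR adjusted p = 6.20e-10). SSR1 read 44.8, 42.6 and 47.4 and 109, 111 and 132 CPM (log2 fold change 1.45 ± 0.17 SE, edgeR adjusted p = 4.87e-09). Both rose without overlap. SSR2 rose 1.32-fold in GFP-positive cells (edgeR adjusted p = 0.0332), a call that was lost with the GC trend removed (edgeR adjusted p = 0.168) and without control replicate 1 or 3 or treated replicate 2 or 3 (edgeR adjusted p = 0.0872 to 0.140). SSR4 read 201, 268 and 153 CPM in control and 154, 168 and 173 CPM in treated GFP-positive libraries and did not pass (log2 fold change -0.26 ± 0.17 SE, edgeR adjusted p = 0.206). In GFP-negative cells SSR4 read 275, 224 and 230.5 and 362, 264 and 557 CPM (log2 fold change 0.67 ± 0.25 SE, edgeR adjusted p = 0.0642), and it passed as higher there with DESeq2 (adjusted p = 0.0316), with the GC trend removed (edgeR adjusted p = 0.0191) and with all 12 libraries in 1 fit (edgeR adjusted p = 0.0295). Its treated and control libraries overlap in both fractions. Without control GFP-positive replicate 3, SSR4 was the 1 member called lower there (log2 fold change -0.45, edgeR adjusted p = 0.0371), and with the GC trend removed its log2 fold change was 0.16. SSR4 shares 267 bases of exon with IDH3G on the opposite strand, whose reads cannot be told apart if the counting ignored strand.

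Of the 5 signal peptidase genes, 4 rose in GFP-positive cells and 2 were DEGs. SPCS3, an accessory subunit needed for activity, read 30.2, 25.3 and 34.5 CPM in control and 70.0, 62.6 and 84.6 CPM in treated libraries (log2 fold change 1.34 ± 0.18 SE, edgeR adjusted p = 1.30e-07). SEC11C, one of the alternative catalytic subunits, read 67.1, 46.1 and 57.2 and 102, 118 and 148 CPM (log2 fold change 1.18 ± 0.18 SE, edgeR adjusted p = 1.01e-06). SEC11A, the other catalytic subunit, rose 1.63-fold (edgeR adjusted p = 0.00127), and SPCS2, an accessory subunit, rose 1.64-fold (edgeR adjusted p = 6.70e-04), a call lost with the GC trend removed (edgeR adjusted p = 0.106). The treated libraries of these 4 genes all lay above the controls. SPCS1 did not pass in either fraction (log2 fold changes 0.33 ± 0.17 and 0.45 ± 0.19, SE), and 2705 of its exonic bases are shared with NEK4 on the opposite strand.

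**Figure D2:**
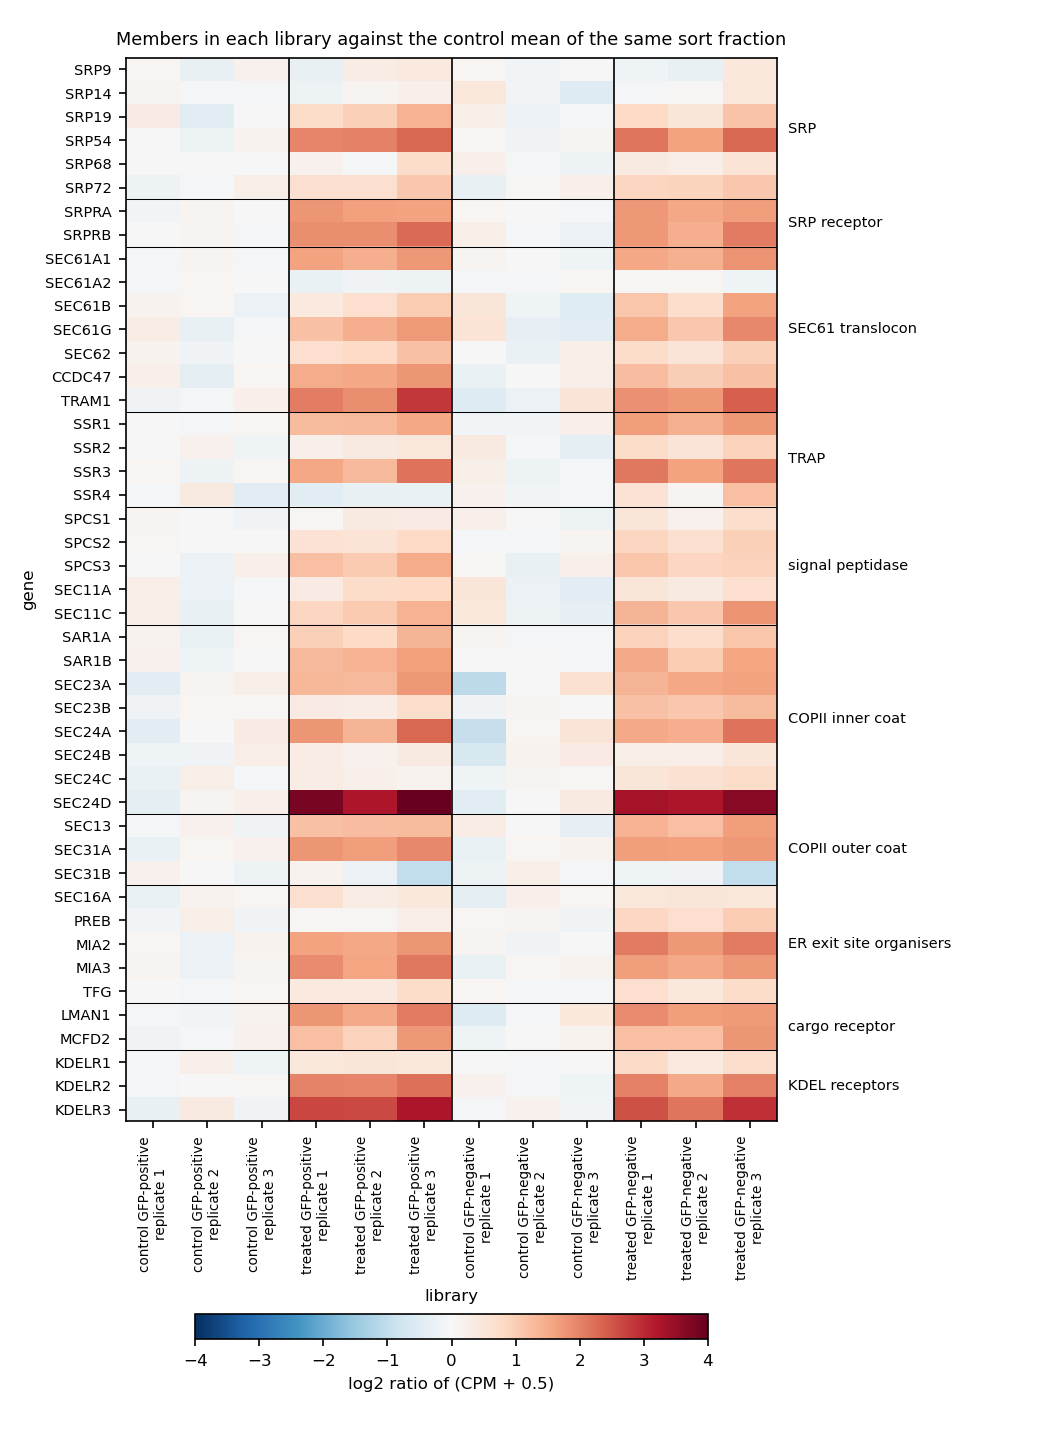
Log2 ratio of (CPM + 0.5) in each of the 12 libraries (columns) to the control mean of the same sort fraction, for the 45 detected members (rows, by role); red is above and blue below the control mean. The treated columns are red in most rows of both fractions, while SRP9, SRP14, SEC61A2, SEC24B and SEC31B stay pale or turn blue.

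SEC24D, one of the 4 SEC24 cargo adaptors of the inner coat, changed most in the export arm together with KDELR3. It read 5.18, 7.53 and 8.06 CPM in control and 104, 69.2 and 146 CPM in treated GFP-positive libraries, a 16.0-fold rise (log2 fold change 4.004 ± 0.23 SE, edgeR adjusted p = 2.87e-16). In GFP-negative cells it read 8.44, 11.3 and 14.9 and 119, 112 and 150.3 CPM, a 10.9-fold rise (log2 fold change 3.44 ± 0.24 SE, edgeR adjusted p = 2.03e-05). The lowest treated library lay far above the highest control library in each fraction. SEC24A, the adaptor closest in sequence to SEC24B, read 18.9, 26.5 and 33.0 CPM in control and 89.0, 67.8 and 131 CPM in treated GFP-positive libraries (log2 fold change 1.95 ± 0.21 SE, edgeR adjusted p = 1.40e-09). SEC24B read 33.7, 34.8 and 45.6 and 47.0, 42.5 and 49.3 CPM, with overlap, and did not pass (log2 fold change 0.35 ± 0.18 SE, edgeR adjusted p = 0.0947). SEC24C, the adaptor closest to SEC24D, read 185, 261 and 215 and 270.3, 251 and 244 CPM, also with overlap (log2 fold change 0.28 ± 0.16 SE, edgeR adjusted p = 0.144). SEC24C passed in GFP-negative cells (1.502-fold, edgeR adjusted p = 0.0157), and in GFP-positive cells with the GC trend removed (edgeR adjusted p = 0.00670), by library size alone (edgeR adjusted p = 0.0244) and without control replicate 2 (edgeR adjusted p = 0.0411). The adaptors thus fell into a strongly raised pair, SEC24D and SEC24A, and a pair, SEC24B and SEC24C, whose fold changes were 1.27 and 1.21 in GFP-positive and 1.24 and 1.502 in GFP-negative cells.

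SEC23, the partner of SEC24 and activator of the SAR1 GTPase, has 2 forms. SEC23A read 34.9, 50.5 and 55.4 CPM in control and 119, 116 and 157 CPM in treated GFP-positive libraries (log2 fold change 1.55 ± 0.18 SE, edgeR adjusted p = 8.41e-09), and 16.4, 33.9 and 52.5 and 89.0, 102 and 106 CPM in GFP-negative ones (log2 fold change 1.51 ± 0.34 SE, edgeR adjusted p = 0.00835). SEC23B read 87.3, 102.9 and 102 and 122, 119.7 and 157 CPM in GFP-positive cells (log2 fold change 0.52 ± 0.16 SE, edgeR adjusted p = 0.00800), and 61.9, 74.6 and 70.1 and 157, 146 and 166 CPM in GFP-negative ones (log2 fold change 1.16 ± 0.15 SE, edgeR adjusted p = 4.81e-04). All treated libraries of both genes exceeded the controls of their fraction. The GFP-positive call of SEC23B was lost without control replicate 1 (edgeR adjusted p = 0.0615) or treated replicate 3 (edgeR adjusted p = 0.0632), and the GFP-negative call of SEC23A without treated replicate 3 (edgeR adjusted p = 0.0518). SAR1A and SAR1B, the GTPases that start the coat, rose 2.19-fold and 2.89-fold in GFP-positive cells, with edgeR adjusted p = 1.46e-06 and 6.43e-09. SAR1B and SEC24A are neighbours on chromosome 5 on opposite strands and share 389 bases of exon, so their reads there cannot be told apart if strand was ignored in counting.

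In the outer coat, SEC31A, the main cage protein, read 112, 141 and 151 CPM in control and 462, 435 and 508 CPM in treated GFP-positive libraries (log2 fold change 1.87 ± 0.16 SE, edgeR adjusted p = 1.41e-11), and 101, 128 and 133 and 382, 377 and 399.9 CPM in GFP-negative ones (log2 fold change 1.66 ± 0.16 SE, edgeR adjusted p = 1.08e-04). SEC13, its partner and also a nuclear pore protein, read 110.1, 128 and 102 and 256, 270.2 and 271 CPM in GFP-positive cells (log2 fold change 1.30 ± 0.16 SE, edgeR adjusted p = 1.97e-08). Both rose without overlap. SEC31B, the second form of the cage protein, read 26.4, 23.1 and 19.996 and 25.5, 19.6 and 11.5 CPM, overlapped between groups and did not pass (log2 fold change -0.23 ± 0.22 SE, edgeR adjusted p = 0.386). Without treated replicate 3, the lowest library, its log2 fold change was 0.03.

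At the exit sites, MIA3 and MIA2, related receptors that help export collagens and other large cargo, were DEGs in both fractions. MIA3 read 41.0, 32.4 and 41.7 CPM in control and 142, 115 and 165 CPM in treated GFP-positive libraries (log2 fold change 1.95 ± 0.18 SE, edgeR adjusted p = 2.63e-11). MIA2 read 9.62, 7.73 and 10.3 and 29.1, 27.9 and 32.4 CPM (log2 fold change 1.76 ± 0.20 SE, edgeR adjusted p = 2.98e-09). The other scaffolds moved less. SEC16A, which marks the exit site, rose 1.45-fold in GFP-positive cells (edgeR adjusted p = 0.00607), a call lost without control replicate 1 (edgeR adjusted p = 0.0705) or treated replicate 1 (edgeR adjusted p = 0.0697). TFG, which clusters coat at the ER to Golgi interface, rose 1.504-fold (edgeR adjusted p = 0.00259), and lost its call with the GC trend removed (edgeR adjusted p = 0.314). PREB, also called SEC12, which loads SAR1 with GTP, read 87.7, 111 and 86.6 and 98.5, 99.0 and 113 CPM in GFP-positive cells and did not pass (log2 fold change 0.19 ± 0.16 SE, edgeR adjusted p = 0.333), but did with the GC trend removed (log2 fold change 0.53, edgeR adjusted p = 0.00374).

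LMAN1 and MCFD2, which together form the receptor for coagulation factors V and VIII and other glycoproteins, rose in both fractions. LMAN1 read 27.6, 26.4 and 31.8 CPM in control and 98.4, 82.1 and 122 CPM in treated GFP-positive libraries (log2 fold change 1.89 ± 0.18 SE, edgeR adjusted p = 8.74e-11). MCFD2 read 66.7, 71.2 and 82.5 and 171, 139 and 245 CPM (log2 fold change 1.40 ± 0.18 SE, edgeR adjusted p = 5.76e-08). The groups did not overlap for either gene, and the fold changes in GFP-negative cells were 3.36 and 2.63.

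The 3 KDEL receptors, which bind the ER retrieval signal of resident chaperones in the Golgi, ranked alike in both fractions. KDELR2 read 98.3, 102.5 and 106 CPM in control and 407, 400.5 and 478 CPM in treated GFP-positive libraries (log2 fold change 2.13 ± 0.16 SE, edgeR adjusted p = 3.11e-13). KDELR1 read 301, 366 and 281 and 426, 441 and 425 CPM (log2 fold change 0.51 ± 0.16 SE, edgeR adjusted p = 0.00641). KDELR3 had 5, 20 and 8 counts (0.186, 0.579 and 0.256 CPM) in control and 163, 167 and 281 counts (4.89, 4.78 and 7.44 CPM) in treated GFP-positive libraries (log2 fold change 4.08 ± 0.37 SE, edgeR adjusted p = 3.15e-11). In GFP-negative cells it read 4.37, 5.31 and 4.27 and 29.8, 22.4 and 38.6 CPM (log2 fold change 2.68 ± 0.24 SE, edgeR adjusted p = 8.16e-05). None of the 3 receptors overlapped between treated and control libraries in either fraction. Per kilobase of exon, the order in control GFP-positive cells was KDELR1 (141 ± 19.7 CPM per kb, SD, n = 3), KDELR2 (26.0 ± 1.00) and KDELR3 (0.178 ± 0.1096), and it was the same after treatment (192 ± 3.98, 109 ± 11.0 and 2.98 ± 0.787). In CPM, KDELR1 and KDELR2 were close in treated GFP-positive libraries (431 ± 8.94 and 428 ± 43.2, SD). Their order there thus depends on exon lengths of 2244 and 3930 bases, while their longest annotated coding lengths over all transcripts are 662 and 636 bases. The length of 662 is not a multiple of 3 and may come from an incomplete transcript.

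**Figure D3:**
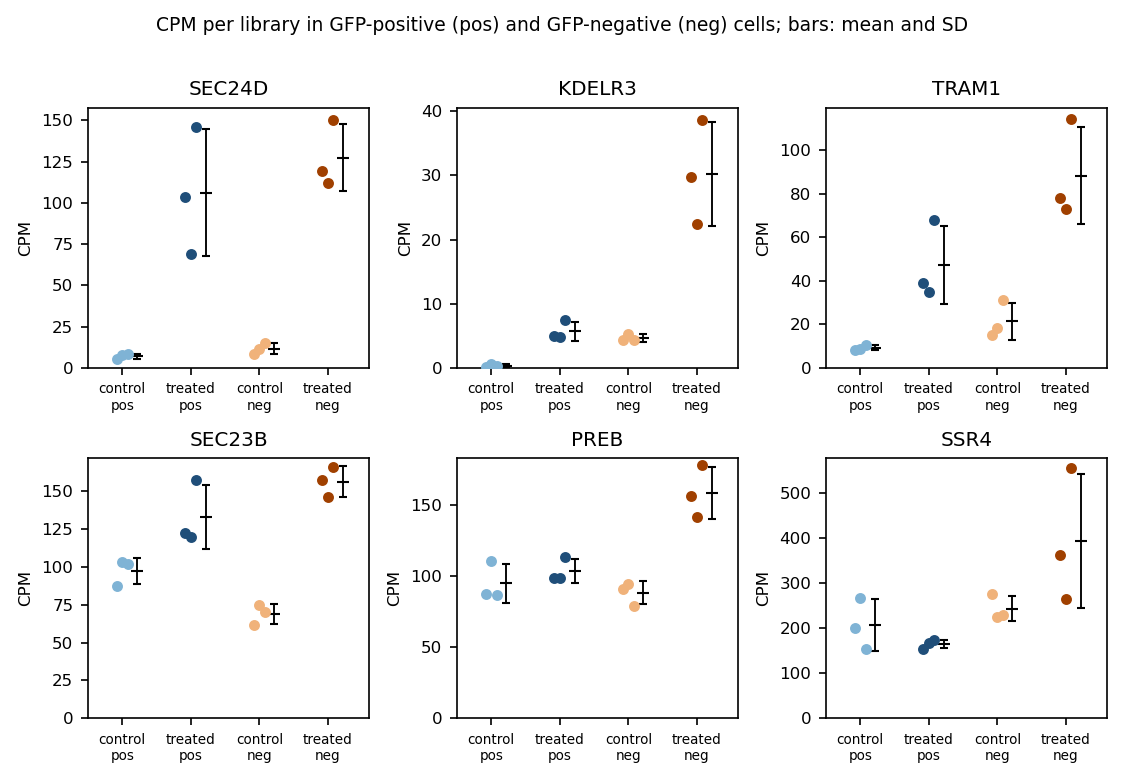
CPM of 6 members in each library (dots) with the group mean and SD (n = 3) beside them, for control and treated GFP-positive (pos) and GFP-negative (neg) cells; each panel has its own scale from 0. SEC24D, KDELR3 and TRAM1 rise in both fractions, while for SEC23B, PREB and SSR4 the treated GFP-negative libraries stand higher against their controls than the treated GFP-positive libraries do.

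The choice among paralogs was measured as the share of each gene in the summed CPM per kb of its family in each library. These shares compare 3 libraries with 3, for which the exact two-sided permutation test cannot give a p below 0.1, and they form 24 comparisons. Of these, 22 showed no overlap between treated and control libraries, each with exact p = 0.1 and an adjusted p of 0.109. Shares of a family add up to the whole in each library, so the SEC24 shares are tied to each other, as are those of the KDEL receptors. Shares in families outside the members were not computed, so this count has no background beside it.

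SEC24D gained most within its family. Its share of SEC24 went from 1.32% ± 0.163 (SD, n = 3) in control to 13.1% ± 3.51 in treated GFP-positive cells, and from 2.504% ± 0.440 to 15.2% ± 1.06 in GFP-negative cells. SEC24A went from 6.76% ± 1.37 to 16.1% ± 3.91 and from 4.76% ± 1.73 to 9.10% ± 1.73. SEC24C remained the largest form in every group but went from 78.0% ± 3.72 to 59.7% ± 7.09 in GFP-positive and from 82.8% ± 4.23 to 68.7% ± 2.62 in GFP-negative cells. SEC24B went from 14.0% ± 2.53 to 11.0% ± 0.332 in GFP-positive cells, with overlap (exact permutation p = 0.200, n = 3 in each group), and from 9.94% ± 2.13 to 6.99% ± 0.0870 in GFP-negative cells. The share of SEC24 in SEC24C thus moved to SEC24D and SEC24A, although the CPM of SEC24C did not fall.

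Per kilobase of exon, SEC23B remained the larger SEC23 form in all 12 libraries, with exon lengths of 4347 bases for SEC23B and 8660 for SEC23A. Their coding lengths are close (2301 and 2295 bases). In CPM the 2 forms were also close in treated GFP-positive libraries (133 ± 20.9 and 131 ± 23.1, SD, n = 3), so which is larger there depends on the length used. The SEC23B share per kilobase of exon lay between 78.5 to 83.3% in control and between 66.5 to 67.2% in treated GFP-positive libraries, a difference of -13.7 percentage points in the means. In GFP-negative cells the share lay between 72.7 to 88.3% in control and 74.1 to 77.9% in treated libraries, which overlap (exact permutation p = 0.400, n = 3 in each group). The shift towards SEC23A was thus separated from the spread of the libraries in GFP-positive cells and not in GFP-negative ones, and the difference between these 2 shifts was not tested.

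Shares moved in the same way in both fractions in the other families. SEC61A2 went from 33.7% ± 0.594 to 12.7% ± 1.52 of SEC61A in GFP-positive cells and from 19.99% ± 2.58 to 7.65% ± 1.49 in GFP-negative cells. SEC31B went from 17.1% ± 4.23 to 4.56% ± 1.80 of SEC31 and from 12.9% ± 1.47 to 3.40% ± 1.10. For both genes the CPM did not pass the test in either fraction, and the share went down as the partner's CPM rose. On the same strand, SEC31B shares 1464 exonic bases with another gene, SEC31A 482 with THAP9-AS1 and KDELR2 376 with DAGLB. Reads there may have been left uncounted as ambiguous, so these shares are less certain. SEC11C went from 59.7% ± 1.30 to 67.3% ± 2.09 of the catalytic signal peptidase subunits and from 37.3% ± 1.33 to 52.5% ± 3.599. SAR1B went from 20.3% ± 1.15 to 25.3% ± 2.06 of SAR1 and from 16.0% ± 0.786 to 20.8% ± 1.54. KDELR1 went from 84.1% ± 1.94 to 63.2% ± 2.71 of the KDEL receptors and from 85.7% ± 1.37 to 70.4% ± 1.56, while KDELR2 went from 15.7% ± 1.98 to 35.8% ± 2.48 and from 13.2% ± 1.34 to 25.7% ± 1.02.

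**Figure D4:**
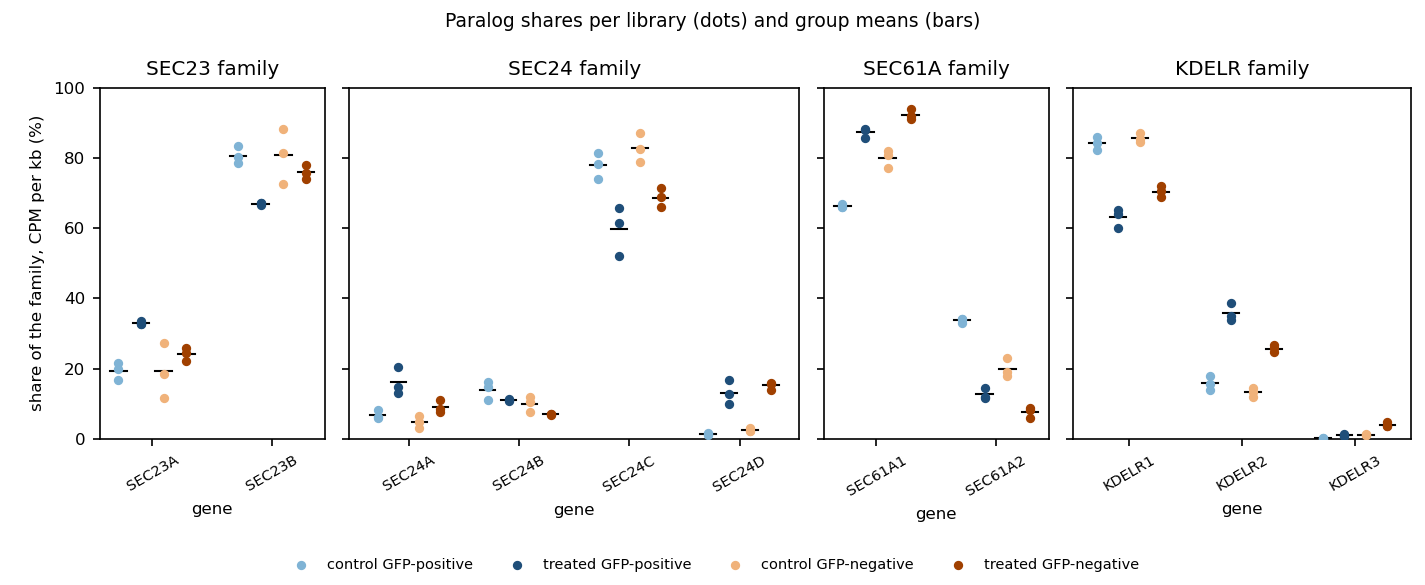
Share (%) of each paralog in the summed CPM per kb of the SEC23, SEC24, SEC61A and KDELR families in each library (dots) and the group mean (bars, n = 3), for the 4 groups. Treated dots of SEC24D, SEC24A, KDELR2 and SEC61A1 lie above and those of SEC24C, KDELR1 and SEC61A2 below the controls of both fractions, while the GFP-negative dots of SEC23A and SEC23B overlap.

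The same genes were tested in GFP-negative cells, the other cells of the same cultures. Of the 45 members, 24 were DEGs that rose and 0 were DEGs that fell, against 8.59% and 9.75% of all 15513 genes tested. At an adjusted p under 0.05, 35 members rose and 0 fell, against 15.3% and 16.2% (39 higher and 0 lower at an unadjusted p under 0.05, and 36 and 0 by DESeq2), and the groups did not overlap for 37 members, all of them higher in treated cells, against 24% of all genes above and 22.6% below. The median log2 fold change was 0.94 in the entry arm, 1.39 in the export arm and -0.01 over all genes. PREB (1.77-fold, edgeR adjusted p = 0.00349), which did not pass in GFP-positive cells, passed here. SEC11A and SEC16A, which passed in GFP-positive cells, did not pass in GFP-negative ones (edgeR adjusted p = 0.149 and 0.0790), although SEC16A did with the GC trend removed (edgeR adjusted p = 0.0314) and with all 12 libraries in 1 fit (edgeR adjusted p = 0.0379), as did SPCS1 in the latter (edgeR adjusted p = 0.0413). Leaving out control GFP-negative replicate 2 ended the calls of 7 members, KDELR1, SEC24C, SEC61B, SEC62, SRP19, SSR2 and TFG (edgeR adjusted p = 0.0506 to 0.102), leaving out treated replicate 1 ended those of KDELR1, SEC62, SRP19, SSR2 and TFG (edgeR adjusted p = 0.0634 to 0.0854), and leaving out treated replicate 3 ended those of SEC23A, SEC61B, SEC62, SRP19 and SSR2 (edgeR adjusted p = 0.0518 to 0.0788). With control replicate 1 left out, SEC11A, SPCS1 and SRP68 passed (edgeR adjusted p = 0.00647 to 0.0491), and with treated replicate 2 left out SSR4 did (edgeR adjusted p = 0.0184).

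Whether the response itself differed between the sort fractions was tested by the interaction of treatment and fraction. In the fit without a culture term 0 of 45 members passed edgeR's test, where 0.968% of 16226 genes passed as higher in GFP-positive cells and 1.22% as lower, 4 members had an unadjusted p under 0.05, and DESeq2 called 1 member higher and 2 lower. Scaled by library size alone, the genes that passed were 266 higher and 84 lower in place of 157 and 198, still with 0 members. The 2 fractions of a treatment that share a number were taken as sorts of 1 culture, since the methods describe treatment before sorting and the labels give the shared number but do not name the culture. With the culture as a block 4 members passed, 1 higher and 3 lower, against 3.2% and 4.59% of all genes. SEC23B rose less in GFP-positive cells (1.43-fold against 2.24-fold), with a difference in log2 fold change of -0.74 ± 0.16 (SE, edgeR adjusted p = 0.0144 with the block and 0.0848 without). PREB differed by -0.71 ± 0.16 (edgeR adjusted p = 0.0182 and 0.0942), and its treated GFP-negative libraries, at 157, 141 and 178 CPM, all stood above its controls at 91.1, 94.5 and 79.2 CPM. SSR4 differed by -0.93 ± 0.27 (edgeR adjusted p = 0.0479 and 0.131). KDELR3 differed the other way, by 1.36 ± 0.33 (edgeR adjusted p = 0.0249 and 0.153), on a base of 0.341 ± 0.210 CPM in the control GFP-positive libraries (SD, n = 3) against 4.65 ± 0.576 CPM in control GFP-negative cells.

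In the controls, the share of members that were lower in GFP-positive motor neurons than in the GFP-negative cells was near that of all genes, and 0 were higher in the main fit. In control GFP-positive against control GFP-negative libraries 13 members were lower and 0 higher at an edgeR adjusted p under 0.05, against 23.1% and 17.1% of all 15404 genes, and 18 members had an unadjusted p under 0.05. Of the 13, 9 belong to the entry arm (SRP68, SRPRA, SRPRB, SEC61A1, CCDC47, TRAM1, SSR2, SSR3 and SEC11A) and 4 to the export arm (SEC24D, SEC13, KDELR1 and KDELR3), and TRAM1 and KDELR3 were the 2 DEGs that were lower, with 0 higher, against 15.3% and 7.47% of all genes. DESeq2 called 3 members higher. KDELR3 differed most, with a log2 difference of -3.83 ± 0.42 SE (edgeR adjusted p = 7.23e-05), and TRAM1 followed with -1.34 ± 0.29 SE (edgeR adjusted p = 0.00425). SEC24D differed by -0.85 ± 0.28 (edgeR adjusted p = 0.0328). With the culture as a block, 16 members were lower and 6 higher, against 27.7% and 23.9% of all genes. The 6 higher ones were SEC24A (0.64 ± 0.17, edgeR adjusted p = 0.0109), SEC24B (0.58 ± 0.17), SEC31B (0.50 ± 0.17), SEC11C (0.45 ± 0.14), SEC23B (0.39 ± 0.108) and SEC61A2 (0.37 ± 0.12). In the same fit SEC61A1, the partner of SEC61A2, was lower (-0.67 ± 0.12), while SEC31A, the partner of SEC31B, did not pass (0.05 ± 0.10, edgeR adjusted p = 0.708). Without control GFP-negative replicate 2, or without any 1 of the 3 control GFP-positive libraries, 6 members were lower, and without control GFP-negative replicate 3, 3 were higher. SEC61A1, TRAM1, SEC13 and KDELR3 were lower whichever 1 of the 6 libraries was left out.

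Neighbouring steps of the pathway were read against the 12.8% of all genes that were DEGs that rose in GFP-positive cells. Of the 9 subunits of the COPI coat, which carries vesicles back from the Golgi, 5 were DEGs that rose in GFP-positive cells, led by COPB1 (1.501 ± 0.17 on the log2 scale, SE), COPB2 (1.48 ± 0.17) and COPA (1.33 ± 0.16), and 0 changed the other way. Among 22 further cargo receptors, including the p24 (TMED) proteins, 9 were DEGs that rose, with TMED7 at 2.27 ± 0.23, YIPF5 at 2.01 ± 0.19 and TMED2 at 1.80 ± 0.18, and 1, CNIH2, was a DEG that fell (-1.30 ± 0.17). Of 24 tethers and SNAREs between ER and Golgi, 8 were DEGs that rose, led by the SNAREs SEC22B (1.94 ± 0.18) and BET1 (1.73 ± 0.23) and the Golgi matrix protein GOLGA2 (1.69 ± 0.16), and RAB1B, TRAPPC2L and TRAPPC5 fell by less than 2-fold. SEC63, the partner of SEC62, rose by 2.09 ± 0.17, while its list mate TRAM2 did not pass. The other routes into the membrane held DEGs that rose near or below that share, with 0 of the 10 ER membrane protein complex (EMC) genes, 1 of 7 genes of the GET route for tail-anchored proteins (CAMLG, 1.71 ± 0.17) and 1 of 6 tested genes of the multipass translocon (TMCO1, 1.41 ± 0.17). The multipass list leaves out CCDC47, a DEG that rose (log2 fold change 1.68), which also serves multipass proteins and was counted with the SEC61 translocon. At an adjusted p under 0.05 and any size, 4 EMC genes rose and 1 fell, 3 GET genes rose, and in the multipass translocon 1 rose and 1 fell, against 26.5% and 24.4% of all genes. Of 8 regulators of the COPII coat, 0 were DEGs by edgeR, while USP8 and CUL3 rose and CSNK1D, TECPR1 and PEF1 fell at an adjusted p under 0.05 in GFP-positive cells. CNIH2, the tethers that fell and these regulators are named after their values were seen. In GFP-negative cells the DEGs that rose numbered 6 of 9 for COPI, 11 of 22 for the further receptors, 9 of 24 for tethers and SNAREs, 1 of 10 for EMC, 1 of 7 for GET and 0 of 8 for the regulators. Of all genes tested in GFP-negative cells, 8.59% were DEGs that rose.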

How the data were processed

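RNA-seq counts of 12 libraries were analysed, 3 in each of 4 groups taken from the treatment and sort entries of the labels (titles of treated libraries also begin with "untreated"). The authors mapped single-end reads of a stranded library to hg38 with HISAT2 and an Ensembl annotation, and the labels name featureCounts, whose strand setting is not given in the sources used here. They deposited whole-number counts per gene symbol without normalization. The labels give a dose of 10 µM and the study's methods a higher one. Of the per-sample columns, 0 were left unused. No 2 libraries held identical or near-identical counts.

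Genes were tested with edgeR 4.0.16 in R 4.3.3 (TMM, filterByExpr with a minimum count of 10 and total of 15, quasi-likelihood F-test, Benjamini-Hochberg adjustment over all genes tested), with no library pooled or dropped. A DEG had an adjusted p below 0.05 and changed at least 2-fold. CPM were scaled by TMM over all 12 libraries, and CPM per kb divided by GENCODE 44 exon length. A GENCODE release other than the authors' was used, with the 46 members and 91.1% of all symbols matched. Paralog shares were compared by exact permutation in Python 3.11.15 (scipy 1.17.1), with adjustment over 24 comparisons. Depth per library limits the precision for genes with few counts, and the limit of 3 counts given for SEC16B covers counting error only. The SE of each log2 fold change comes from the edgeR fit and includes the spread between libraries. Libraries of a group are separate thaws, so p-values measure the spread between thaws of 1 line.

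Alternatives were DESeq2 1.42.0, no filter or a stricter one (10 counts in each library), scaling by RLE or by library size alone, the replicate number as a block (for the interaction the culture, that is treatment and number), removal of the GC trend (loess, span 0.5) with and without it, all 12 libraries in 1 fit, and each library left out in turn. A gene overlapping another could share its reads. Same-strand exon overlaps exist for SRP19, SRPRB, CCDC47, SSR1, SEC31A, SEC31B, SEC16B and KDELR2, whatever the strand setting. Other overlaps are on the opposite strand, such as the 381 bases that SRPRB shares with RAB6B. GFP-positive and GFP-negative libraries of the same treatment and number were taken as sorts of 1 culture, from the study's methods and the shared number. Over 16226 genes, their deviations from the means of their groups had correlations of 0.28, 0.08 and 0.21 (control) and 0.16, 0.20 and 0.36 (treated), 1 of them under 0.1.

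On simulated counts, 200 genes were changed by 2 on the log2 scale. All genes were given the same relative spread beyond counting error. For the GFP-positive comparison edgeR called all 200 and 0 others among 15357 genes. A call there also needed a 2-fold change, so false calls at an adjusted p alone were not counted. The interaction had no fold rule. For the interaction it called 199, with 10 false calls among 16090 genes. With a GC trend added to the GFP-positive comparison, edgeR called 197 of the 200, with 484 false calls among 15466 genes. With that trend removed it called 200, with 5 false calls. Recovery of smaller changes was not tested. The members, the pathway lists, markers and motifs were chosen with earlier results of these data known. All members may be named, and per pathway list up to 3 DEGs with the largest change in GFP-positive cells, with other names marked. Promoter windows are from RefSeq on GRCh38.p14. Figures were drawn with matplotlib 3.10.9.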

Additional observations from a re-analysis of the deposited data

Results flagged for a closer look

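Of the 45 tested members, 4 differed between the sort fractions in their response to cis-chlordane when the culture was a block in the interaction test, 1 higher and 3 lower, against 3.2% and 4.59% of all genes, so their share is near that of all genes. The pairing of sorts into cultures was taken from the methods and the shared numbers. The values are the log2 fold change in GFP-positive cells minus that in GFP-negative cells, and none passed in the fit without the block. SEC23B differed by -0.74 ± 0.16 (SE, edgeR adjusted p = 0.0144), and also passed with DESeq2 and with the GC trend removed. PREB differed by -0.71 ± 0.16 (edgeR adjusted p = 0.0182) and KDELR3 by 1.36 ± 0.33 (edgeR adjusted p = 0.0249), both of which also passed with DESeq2. SSR4 differed by -0.93 ± 0.27 (edgeR adjusted p = 0.0479) and passed in the blocked fit alone among the alternatives run. SEC23B and PREB rose in 3 of 3 treated GFP-negative libraries above all their controls, KDELR3 did so in both fractions, and the libraries of SSR4 overlapped in both.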

How the results depend on the processing

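In both sort fractions the counts of members called stayed within 1.5 times, at 21 to 26 DEGs and 32 to 39 risen genes in GFP-positive and 22 to 26 and 28 to 38 in GFP-negative cells, and 0 members were called lower, except that SSR4 was without control GFP-positive replicate 3 (0 to 1). No paralog share changed direction. With the GC trend removed the median log2 fold changes in GFP-positive cells were 0.81 in the entry and 1.09 in the export arm (0.81 and 1.10 with the replicate block as well) and 1.26 in the export arm of GFP-negative cells (0.77 and 1.23 in the 2 arms with the block). Under the same 2 settings SRP9 (-0.23 and -0.24), SRP14 (-0.18 and -0.19), SSR4 (0.16 and 0.17) and SPCS1 (-0.023 and -0.017) changed sign in GFP-positive cells, none of them past the threshold. With single libraries left out, the GFP-positive medians ran from 0.86 to 1.18 in the entry and from 1.28 to 1.55 in the export arm, and SEC31B from -0.52 to 0.028. The cause of these shifts was not tested.

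For the interaction, members called higher and lower numbered 1 and 2 with DESeq2, 1 and 3 with the replicate block (here the culture), 0 and 1 with the GC trend removed and 1 and 2 with both, against 0 and 0. All genes called went from 157 higher and 198 lower to 407 and 391 with DESeq2, 266 and 84 by library size alone, 519 and 745 with the block and 529 and 724 with the GC trend removed too, while at least 10 counts in every library gave 105 lower, and single libraries left out gave as few as 68 and 47. Library size alone moved the median of all genes to 0.14 in GFP-positive cells and to 0.20 for the interaction. In control GFP-positive against GFP-negative cells, members called higher numbered 3 with DESeq2, 1 with RLE scaling, 1 by library size alone, 6 with the block, 2 with the GC trend removed, 4 with both and 4 with all 12 libraries together, against 0, and 0 to 3 with a library left out. Those called lower ran from 6 to 13 with a library left out, and 1 DEG was lower with at least 10 counts in every library, where KDELR3 was not tested.

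Treated and control libraries of a fraction share only a replicate number (correlations of -0.02, 0.10 and 0.13 in GFP-positive and -0.05, 0.28 and 0.03 in GFP-negative cells). A block of that number left 24 GFP-negative DEGs and ended no call named in the report. Over all genes, GFP-negative calls were 1356 higher and 1414 lower without treated replicate 1 and 1370 and 1522 without control replicate 2, against 2367 and 2520. Depth limits KDELR3 in control GFP-positive cells (5 to 20 counts).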

Other observations

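Per kilobase of exon, control GFP-positive cells carried KDELR1 at the highest level of the members, 141 ± 19.7 CPM per kb (SD, n = 3), followed by SRP14 at 92.9 ± 7.03, SEC61B at 50.1 ± 6.48, SSR4 at 45.5 ± 12.6 and SEC24C at 41.2 ± 7.11. On this scale the libraries of KDELR1 and of SRP14 did not overlap with each other or with the next genes, while those of SEC61B, SSR4 and SEC24C overlapped. The order depends on exon length, which is 2244 bases for KDELR1, 2047 for SRP14 and 5353 for SEC24C. The longest annotated coding lengths stand in other proportions (662, perhaps of an incomplete transcript, 408 and 3282 bases), so an order by coding length can differ. In CPM, SEC61A1 (320 ± 23.5, SD) stood beside KDELR1 (316 ± 44.3). At the other end stood KDELR3 at 0.178 ± 0.1096, SEC24D at 0.698 ± 0.155 and MIA2 at 0.874 ± 0.125 CPM per kb. After treatment SEC24D stood at 10.7 ± 3.86, which overlapped with SEC24A at 13.2 ± 4.43 and SEC24B at 8.86 ± 0.655 but not with SEC24C at 47.7 ± 2.57. KDELR3 after treatment, at 2.98 ± 0.787 in GFP-positive cells, overlapped with its level in control GFP-negative cells, 2.43 ± 0.301.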
